A study of Mus musculus with 54 samples.

Results

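The clustered protocadherins are cell adhesion proteins encoded by 3 neighbouring subclusters on mouse chromosome 18, Pcdha, Pcdhb and Pcdhg. The members examined here were the merged ATAC-seq peaks with a centre between 36.9 and 37.9 Mb on chromosome 18 (build GRCm38), and the protein-coding genes of this region whose names begin with Pcdha, Pcdhb or Pcdhg in the GENCODE M21 annotation. This gave 95 peaks of 113737 in the whole list, and 57 genes of 21938, with 14 genes in Pcdha, 22 in Pcdhb and 21 in Pcdhg.

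ATAC-seq, in which a transposase inserts sequencing adapters into accessible DNA, was run on ZHBTc4 mouse embryonic stem (ES) cells, in which doxycycline (dox) shuts off the endogenous gene for the pluripotency factor OCT4. Every one of the 54 samples in 24 groups carried the lentiviral constructs mCherry-OCT4-AID, an OCT4 fusion that the auxin indole-3-acetic acid (IAA) degrades, and YPet-MD, a cell cycle reporter. Every sample, controls included, had 1 µg/ml dox. The cells expressed the constructs constitutively together with the auxin receptor TIR1-V5, and were a sorted population selected for auxin-dependent loss of mCherry, not a line described as 1 clone. One experiment compared cells with or without 500 nM IAA for 2 hr (26 hr of dox in total) in early G1, late G1 and S phase (3 replicates per group) and in late S and G2 phase (2 replicates). Another used IAA or none for 2.5 hr followed by 4.5 hr of washout (31 hr of dox) in the same phases, and a time course used untreated cells or IAA for 30 min, 1, 2, 3, 4, 6 or 10 hr (34 hr of dox), each with 2 replicates. All of these samples were merged into 1 list of peak positions with no count or signal. For that reason no level could be given per sample, no difference between OCT4-depleted and control cells could be tested, and the sequencing depth behind a peak is unknown. A peak means that the site is in the merged list, and the libraries it came from cannot be told.

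Each Pcdha, Pcdhb and Pcdhg gene has its own promoter and its own large variable exon, which encodes the signal peptide, the cadherin repeats outside the cell, the membrane-spanning segment and the start of the cytoplasmic tail. In Pcdha and Pcdhg this exon is spliced to constant exons shared by the whole subcluster, whereas Pcdhb genes consist of the variable exon without constant exons. Neurons choose few of the alternate promoters at random, with the help of the insulator protein CTCF, cohesin and distant enhancers, while the C-type genes at the end of Pcdha and Pcdhg are used more uniformly. The clusters are best known for their part in the identity and self-avoidance of neurons.

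To ask how densely the region was covered, its peaks were counted beside other windows of the genome. The 95 peaks in this 1 Mb region compared with 41.8 peaks per Mb of chromosome 18 and with a median of 43 peaks over 2393 autosomal 1 Mb windows. Of these windows 140 held at least 95 peaks, and the densest held 200. The protocadherin region was thus among the denser windows, but not the densest. Its peaks covered 64153 bp and had a median width of 659 bp (171 to 1967 bp), between the median of 970 bp for all peaks within 1 kb of a transcription start site (TSS) and that of 380 bp for all others.

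Most peaks lay at variable exons. Pcdha held 23 peaks in 257.5 kb, Pcdhb 26 in 259.5 kb and Pcdhg 34 in 180.1 kb, which is 18.9 per 100 kb in Pcdhg against 8.93 in Pcdha and 10.0 in Pcdhb. The 30.2 kb before Pcdha1 held 0 peaks, the 77.3 kb between Pcdha and Pcdhb held 1, the 137.3 kb between Pcdhb and Pcdhg held 5, and the 58.1 kb after Pcdhg held 6. Per 100 kb this was 1.29 peaks between Pcdha and Pcdhb, 3.64 between Pcdhb and Pcdhg, and 10.3 after Pcdhg, where the density was above those of Pcdha and Pcdhb. Of the 95 peaks, 40 were start peaks, with a centre within 1 kb of the first base of a variable exon, and 34 were body peaks, with a centre more than 1 kb past this base and inside the coding part of the exon. The other 21 lay at 2 other exon positions, between exons of a subcluster (8) or outside the subclusters (11).

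**Figure D1:**
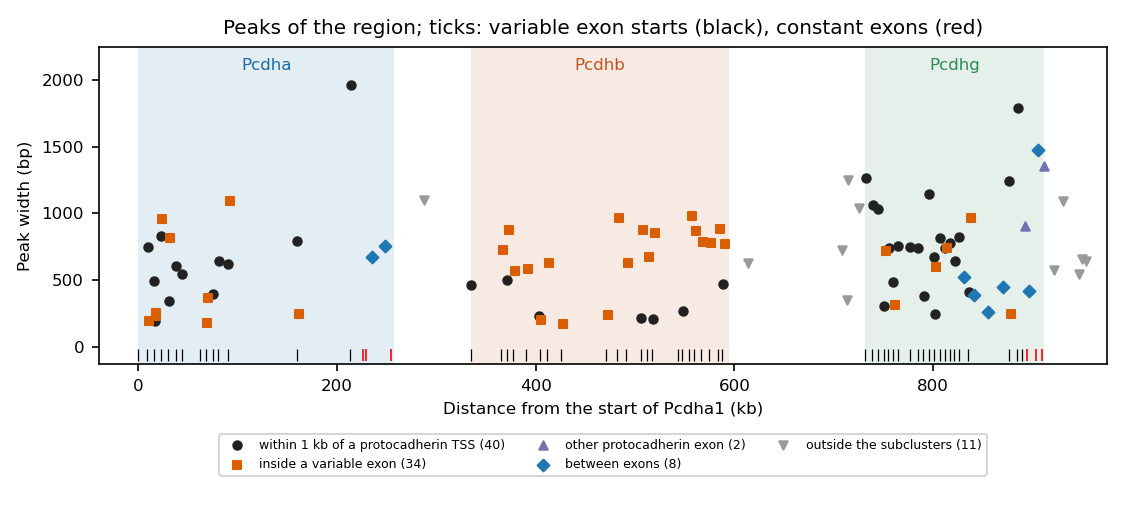
Each point is 1 of the 95 peaks, with its width in bp against its distance in kb from the start of Pcdha1. Shading marks the 3 subclusters, black ticks the starts of the variable exons and red ticks the constant exons. Start peaks and body peaks fill the parts with variable exons, and the widest peaks lie at Pcdhac2 (1967 bp) and Pcdhgc4 (1790 bp).

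A peak centre lay within 1 kb of an annotated TSS for 38 of the 57 genes (66.7%), and 70.8% of all protein-coding genes had such a peak. The subclusters differed in their counts. A TSS peak was found for 20 of 21 Pcdhg genes (95.2%), for 11 of 14 Pcdha genes (78.6%) and for 7 of 22 Pcdhb genes (31.8%). With a TSS limit of 2500 bp in place of 1 kb the count in Pcdhb was 21, because peaks inside the exons then came within reach. The same 38 genes had a start peak at the variable exon itself. The peaks were merged over all samples, so these counts do not say in which samples a promoter was called, nor how often it was open per cell.

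A different picture emerged for the variable exons as a whole. A peak overlapped the variable exon of 53 of 57 genes (93.0%), with 12 of 14 in Pcdha, 21 of 22 in Pcdhb and 20 of 21 in Pcdhg. Of the first coding exons of all protein-coding genes 42.8% were overlapped by a peak, and of 285 exons outside the clusters with at least 2 kb of coding sequence, which are closer to the variable exons in length, 42.5%. These exons were chosen by length only and need not lie at a promoter, whereas each variable exon has its own, so overlap there also counts start peaks. Body peaks, counted after the positions had been seen, were found in 32 of the 57 variable exons (56.1%) and in 19.6% of these 285 exons. By subcluster, body peaks were present in 19 of 22 Pcdhb exons (86.4%), 7 of 14 Pcdha exons (50.0%) and 6 of 21 Pcdhg exons (28.6%). Both kinds of peak occurred in 17 genes, a start peak alone in 21, a body peak alone in 15, and neither in 4, which were Pcdha1, Pcdha8, Pcdhb15 and Pcdhgc5.

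**Figure D2:**
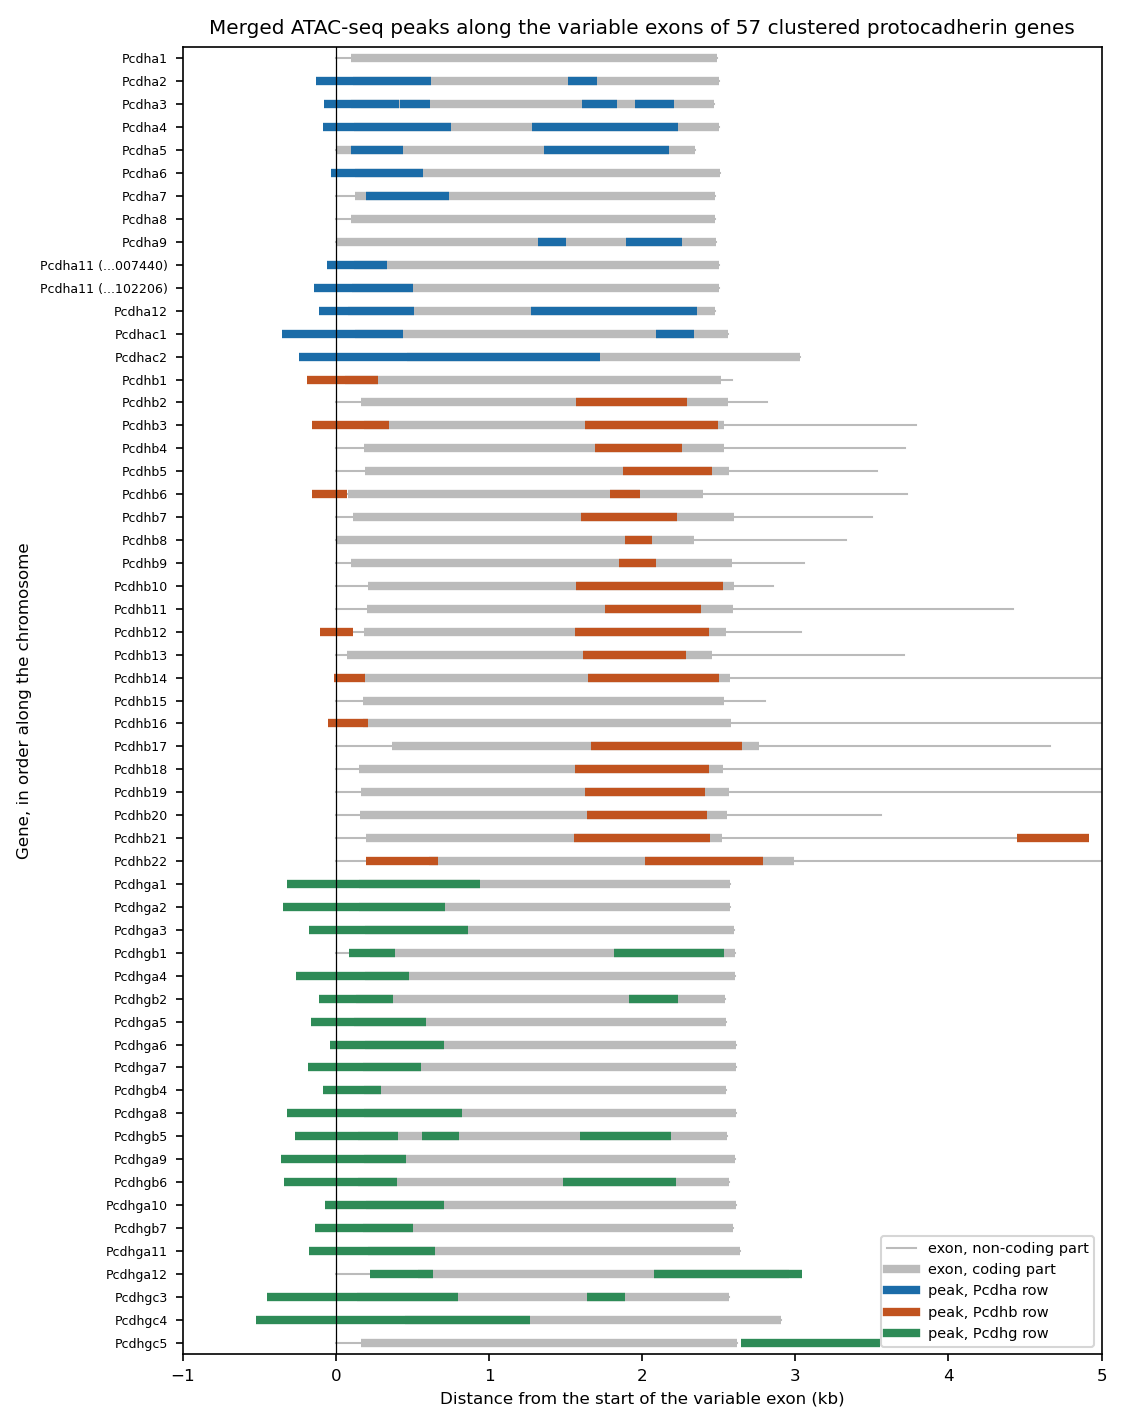
Rows are the 57 genes in chromosomal order, aligned at the start of the variable exon (x axis, distance in kb). Thin grey lines are non-coding and thick grey lines coding exon, and coloured bars are merged peaks. Pcdhb rows mostly carry a bar near 2 kb, whereas Pcdhga rows carry one at 0. The bar near 4.5 kb in the Pcdhb21 row is the start peak of Pcdhb22, whose exon begins inside the last 455 bp of the Pcdhb21 exon.

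In Pcdha, the alternate genes are followed by the C-type genes Pcdhac1 and Pcdhac2. Start peaks were present at 9 of the 12 alternate genes and at both C-type genes. Among the alternate genes, the centres of the start peaks lay 244 bp past the exon start in Pcdha2, 333 bp in Pcdha4, 268 bp in Pcdha5, 270 bp in Pcdha6, 469 bp in Pcdha7 and 198 bp in Pcdha12. Pcdha3 had 2 start peaks, of 492 and 194 bp next to each other. The symbol Pcdha11 belongs to 2 gene identifiers in the annotation, which are kept apart here. ENSMUSG00000007440 had a start peak of 392 bp (chr18:37005146-37005537) and ENSMUSG00000102206 one of 642 bp (chr18:37010612-37011253). The start peaks of the alternate genes were 194 to 834 bp wide, narrower than that of Pcdhac2, which extended from 243 bp before the exon start to 1723 bp past it (chr18:37143260-37145226, 1967 bp) and was the widest peak of the region. Pcdhac1 had a start peak of 792 bp at chr18:37089661-37090452.

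Body peaks in Pcdha were variable in width and position. Those of Pcdha4 (955 bp, chr18:36953930-36954884), Pcdha5 (817 bp, chr18:36961800-36962616) and Pcdha12 (1090 bp, chr18:37021420-37022509) were broad and centred 1759, 1768 and 1815 bp past the exon start. Narrow body peaks were seen in Pcdha2 (192 bp), in Pcdha3 (231 and 256 bp) and in Pcdhac1 (247 bp). Pcdha9 was the only Pcdha gene with body peaks and no start peak. Its body peaks of 181 and 366 bp were centred 1413 and 2074 bp past the exon start, which made it the gene without a TSS peak whose nearest peak centre was closest to a TSS (1413 bp), followed by Pcdhb2 (1901 bp) and Pcdhb7 (1916 bp). Pcdha1 had no peak in its exon, and its nearest peak centre, that of the Pcdha2 start peak, was 9164 bp away from its TSS.

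Pcdhb genes showed the reverse order, with body peaks more frequent than start peaks. Start peaks were found at 7 genes and were narrow, 209 to 504 bp wide with a median of 264 bp. They lay at Pcdhb1 (464 bp), Pcdhb3 (504 bp), Pcdhb6 (227 bp), Pcdhb12 (218 bp), Pcdhb14 (209 bp), Pcdhb16 (264 bp) and Pcdhb22 (470 bp). The widths of these 7 peaks did not overlap those of the C-type genes with a start peak, which were 792 to 1967 bp wide. All peaks of the list within 1 kb of a TSS had a median width of 970 bp, inside the C-type range and above all 7 Pcdhb widths. Of the 7 genes, Pcdhb1 and Pcdhb16 had no body peak. Pcdhb1 is the first gene of the subcluster, with its peak at chr18:37264749-37265212.

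The body peaks of Pcdhb were alike in position. Across the 19 genes their centres lay 1886 to 2403 bp past the exon start (median 2001 bp), which corresponds to codons 589 to 660 of reading frames with 772 to 829 codons. The right edges lay 38 to 494 bp before the end of the coding part (median 158 bp), so that the peaks ended close to the stop codon without reaching it. Widths were 171 to 984 bp, with a median of 773 bp. The centre was 1929 bp past the exon start in Pcdhb2, 2062 bp in Pcdhb3, 1973 bp in Pcdhb4, 2167 bp in Pcdhb5, 1886 bp in Pcdhb6, 1916 bp in Pcdhb7, 1976 bp in Pcdhb8 and 1970 bp in Pcdhb9. These first genes included the 3 narrowest body peaks of the subcluster, in Pcdhb8 (171 bp), Pcdhb6 (198 bp) and Pcdhb9 (241 bp). Further along, the centre was 2048 bp past the exon start in Pcdhb10, 2071 bp in Pcdhb11, 1999 bp in Pcdhb12, 1950 bp in Pcdhb13 and 2074 bp in Pcdhb14, with widths of 630 to 964 bp. For the last genes, it was 2159 bp in Pcdhb17, 1999 bp in Pcdhb18, 2016 bp in Pcdhb19, 2032 bp in Pcdhb20, 2001 bp in Pcdhb21 and 2403 bp in Pcdhb22, with widths of 773 to 984 bp. The widest was that of Pcdhb17 (chr18:37486463-37487446).

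Between the start and the body peaks the exons of Pcdhb were bare. Between 1 and 1.5 kb past the exon start, no 100 bp bin was covered in any of the 22 genes, whereas the bin from 1900 to 1999 bp was covered in 18 of 22 (81.8%), counting a bin as covered when peaks filled at least 50% of it. Pcdhb15, in contrast to its neighbours, had neither peak.

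**Figure D3:**
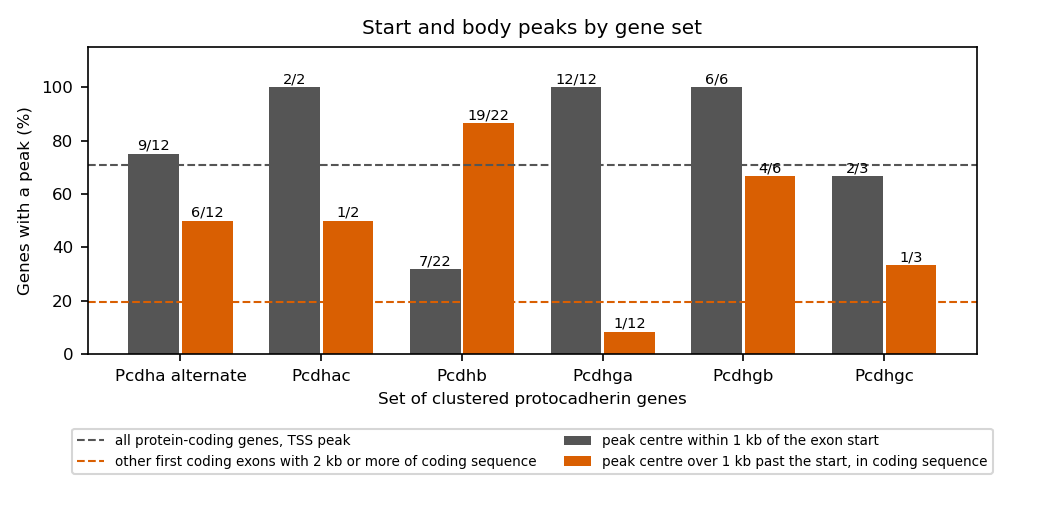
Bars give the percentage of genes of each set with a start peak (grey) or a body peak (orange), with the number of genes above each bar. The dashed lines are the 70.8% of all protein-coding genes with a TSS peak (grey) and the 19.6% of other long first coding exons with a body peak (orange). Pcdhb has the lowest bar for start peaks (7 of 22) and the highest for body peaks (19 of 22).

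Pcdhg interleaves the related Pcdhga and Pcdhgb genes and ends in the C-type genes Pcdhgc3, Pcdhgc4 and Pcdhgc5. All 12 Pcdhga genes had a start peak, centred 51 to 428 bp past the exon start. The widest were those of Pcdhga1 (1265 bp, chr18:37661471-37662735), Pcdhga8 (1145 bp), Pcdhga2 (1062 bp) and Pcdhga3 (1033 bp). Those of Pcdhga4, Pcdhga5, Pcdhga6, Pcdhga7, Pcdhga9, Pcdhga10 and Pcdhga11 were 737 to 824 bp wide, and that of Pcdhga12 was 408 bp wide. Only 1 of the 12 had a body peak, Pcdhga12, in which a peak of 969 bp (chr18:37767655-37768623) crossed the end of the coding part by 82 bp. Its centre was also within 1 kb of a TSS of Gm26672, a transcript on the other strand.

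All 6 Pcdhgb genes had a start peak as well, but 4 of them also had a body peak. Start peaks were 303 bp wide in Pcdhgb1, 485 bp in Pcdhgb2, 379 bp in Pcdhgb4, 739 bp in Pcdhgb6 and 641 bp in Pcdhgb7, and Pcdhgb5 had 2, of 672 and 244 bp. Body peaks were centred 2174 bp past the exon start in Pcdhgb1, 2074 bp in Pcdhgb2, 1891 bp in Pcdhgb5 and 1851 bp in Pcdhgb6. Their positions overlapped the range of Pcdhb, although the Pcdhgb exons lie among Pcdhga exons of which 11 of 12 had none.

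The C-type genes did not behave as 1 set. Pcdhgc3 had a start peak of 1245 bp (chr18:37805962-37807206) and a narrow body peak of 247 bp with its centre 250 bp from the TSS of the antisense gene BC037039, which the peak did not cover. The start peak of Pcdhgc4 spanned 522 bp before to 1267 bp past the exon start (chr18:37814557-37816346, 1790 bp) and was the second widest of the region. Pcdhgc5 had neither, and the closest peak began 27 bp past its variable exon (chr18:37822161-37823067, 907 bp), in a further annotated exon. Start peaks wider than 1 kb were found at Pcdhac2, Pcdhgc3, Pcdhgc4 and 4 Pcdhga genes, and at 0 Pcdhb genes.

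Antisense and read-through genes also start inside the clusters, so that a peak at a variable exon can lie at the TSS of a further gene. Of the 40 start peaks 6 also lay within 1 kb of a TSS of another gene, and of the 34 body peaks 3 did. The start peaks were those of Pcdha4 (Gm38225 and the read-through gene Gm42416), Pcdha6 (Gm37753), Pcdha12 (Gm10545), Pcdhga1 (Gm37118), Pcdhga8 (Gm37165) and Pcdhga11 (Gm26672). The body peaks were those of Pcdhb12 (Gm37446), Pcdhga12 and Pcdhgc3. The remaining 31 body peaks thus had no annotated TSS of another gene within 1 kb.

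To describe the sequence under the peaks, GC content and CpG density (the observed over the expected number of CpG dinucleotides) were computed. The 95 peaks had a median GC content of 53.6% and a median CpG ratio of 0.583, against 49.1% and 0.246 for all peaks of the list. Body peaks had a median GC content of 60.1% and start peaks of 52.1%, with CpG ratios of 0.590 and 0.644. Between 1.5 and 2.5 kb past the exon start, the CpG ratio had a median of 0.760 in the 4 Pcdhgb genes with a body peak, 0.742 in the 2 without, and 0.306 in the 11 Pcdhga genes without (0.152 to 0.552). Pcdhga12, the Pcdhga gene with a body peak, had a ratio of 0.652, above all 11 of these. In Pcdhb the medians were 0.485 (19 genes with a body peak, 0.352 to 0.632) and 0.398 (3 genes without, 0.262 to 0.512), and the ranges overlapped. In Pcdha they were 0.677 with and 0.585 without, again with overlapping ranges. GC content over the same stretch was 54.1% in Pcdhga12, within the 51.3 to 56.0% of the 11 other Pcdhga genes, whereas in Pcdhgb it was 58.9 to 59.4% with and 56.3 to 58.3% without a body peak. In this stretch the CpG ratio thus set Pcdhga12 apart from the other Pcdhga genes and GC content did not. The coding part of Pcdhga12 begins 537 bp past the exon start, against 121 to 210 bp in the other 11. The stretch therefore holds an earlier part of its reading frame, and its body peak, from 2075 to 3043 bp, extends past it. In Pcdhgb the GC ranges did not overlap, with only 4 and 2 genes, while the CpG ranges did. Median GC content was 58.1% with and without a body peak in Pcdha, and 58.0% and 57.4% in Pcdhb, with overlapping ranges. The part of composition in the peaks was not tested.

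**Figure D4:**
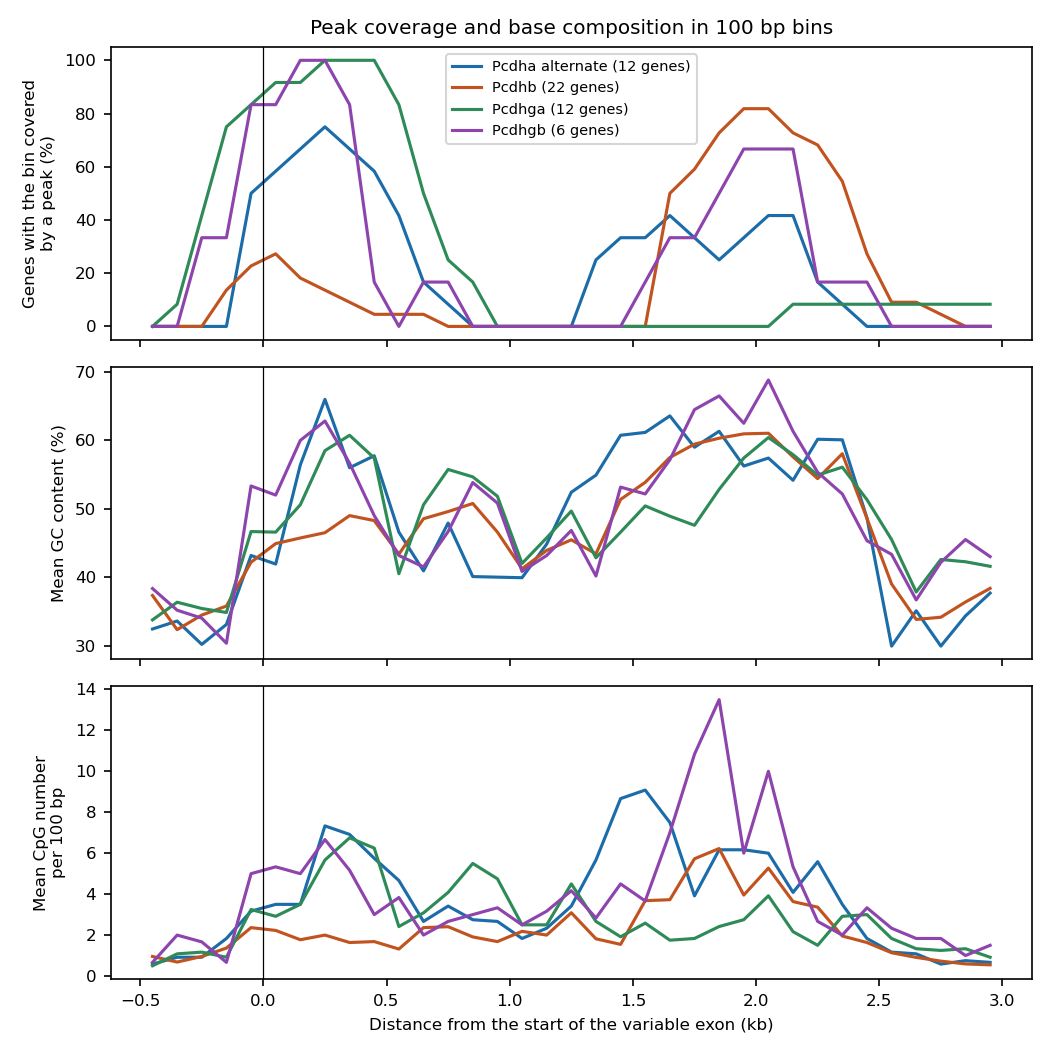
Lines show, for 4 sets of genes in 100 bp bins along the variable exon (x axis, kb from its start), the percentage of genes with the bin covered by a peak (top), the mean GC content in percent (middle) and the mean number of CpG per 100 bp (bottom). Coverage of Pcdhga reaches 100% near the start and that of Pcdhb 81.8% near 2 kb, where the mean GC content of Pcdhb is higher than at the exon start.

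Variable exons of a subcluster resemble each other, and short reads cannot always be assigned to 1 of several near-identical copies. The share of 50 bp words of the exon that recur elsewhere in the region was used as a measure. Between 1.5 and 2.5 kb past the exon start its median was 35.4% in the 4 Pcdhgb genes with a body peak (17.1 to 46.9%), 7.47% in the 2 Pcdhgb genes without one (1.05 to 13.9%) and 0% in the 11 Pcdhga genes without one, so that within Pcdhgb the ranges did not overlap. Over all genes it was 11.3% in the 32 with and 0.84% in the 25 without a body peak. In Pcdhb it was 7.68% with and 5.47% without a body peak, and in Pcdha 15.7% with and 14.9% without. It was 0% in Pcdhga12, Pcdhac1, Pcdhgc3 and Pcdhb10, which had a body peak. The share of repeated words was thus higher with a body peak in Pcdhgb and in the median over all genes but not in these 4 genes. In the 500 bp on each side of the exon start, its median was 16.1% in the 11 Pcdha genes with a start peak. It was 7.57% in the 3 Pcdha genes without one, and the ranges overlapped. In Pcdhb it was 0% with and without a start peak. In the 12 alternate Pcdha genes it reached 71.4% from 300 to 399 bp past the exon start, where start peaks lie. How the aligner's treatment of such reads affected start or body peaks was not tested. Interspersed repeats were rare, with 1 of the 95 peaks more than 50% repeat against 12.8% of all peaks.

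CTCF is known to bind sites at many of these promoters and exons, and the orientation of the sites matters for their contacts with enhancers, so matches to the CTCF consensus (up to 1 mismatch, both strands) were located. Of the 95 peaks 20 held a match (21.1%, Wilson 95% interval 14.1 to 30.3%, counting error only), against 16.6% of all peaks. This interval treats the peaks as independent, although 9 of the 20 were body peaks of tandem Pcdhb genes. It may therefore be too narrow, and it is no test against the share of all peaks. The direction turned when only the 200 bp around the peak centre were searched (6 peaks, 6.32%, against 8.14% of all peaks), while the count was 13 with no mismatch (13.7%, against 4.19%) and 59 with up to 2 (62.1%, against 49.5%). The peaks of the region were also wider than all peaks, with medians of 659 and 447 bp. By kind, these were 3 of 40 start peaks, 11 of 34 body peaks, 1 of 8 peaks between exons and 5 of 11 peaks outside the subclusters. The 11 body peaks comprised 9 of 19 in Pcdhb and 2 of 9 in Pcdha, and 0 of 6 in Pcdhg.

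Of 37 matches in the variable exons and the 500 bp before them, 27 fell into 2 groups by position and strand, described after the positions had been seen. In Pcdhb, 18 of 22 exons held a match on the strand opposite to the gene within the coding part, 2200 to 2810 bp past the exon start and always 116 to 200 bp before the end of the coding part. Of the 285 long first coding exons outside the clusters, 14.7% held a match on the opposite strand anywhere in the coding part. Of these 18 genes 16 had a body peak, which enclosed the match in 9 and ended before it in 7. A body peak was also present in 3 of the 4 Pcdhb exons without the match. In Pcdhb11 and Pcdhb22 the match began 18 and 21 bp past the peak, and in Pcdhb9 321 bp past it. The other 2 genes, Pcdhb15 and Pcdhb16, had the match without a body peak. In Pcdha, 9 alternate exons held a match on the strand of the gene, 456 to 581 bp past the exon start, and 3.86% of the 285 other exons held one on the gene's strand in the first kb. Of these 9 Pcdha genes 6 had a start peak, which enclosed the match in Pcdha4 and Pcdha7 and ended 10 to 242 bp before it in Pcdha5, Pcdha6, Pcdha12 and the upstream Pcdha11. Pcdha1, Pcdha8 and Pcdha9 had the match without a start peak, and all 3 alternate genes without the match had a start peak. The other 10 matches lay at scattered positions, 4 in Pcdha, 3 in Pcdhb and 3 in Pcdhg, the last in Pcdhgb1 (322 bp past the exon start), Pcdhgb7 (838 bp) and Pcdhga8 (2258 bp). Within 500 bp of the exon start 3 of the 57 genes held a match, and 11.4% of all first coding exon starts did. A match describes letters in the sequence and does not show that CTCF was bound.

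The constant exons, which encode the cytoplasmic end shared by all proteins of Pcdha or Pcdhg, carried 0 peaks in the coding parts of 6 exons of 59 to 308 bp. Of the coding segments of this length after the first one in genes outside the clusters 5.37% were overlapped by a peak, so 0 of 6 is near the background. A peak after the Pcdhg genes overlapped the non-coding end of the last Pcdhg exon. The peak centres closest to them were 6196 to 9321 bp away in Pcdha and 1488 to 2829 bp in Pcdhg. In Pcdha, 2 peaks lay between exons, both in the intron between the constant exons 2 and 3. These were at chr18:37165170-37165841 (672 bp, GC content 44.8%) and chr18:37178247-37178998 (752 bp, at the TSS of the non-coding gene Gm10544). Pcdhb had 0 peaks between exons, so that all 26 of its peaks were start or body peaks.

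Pcdhg had 6 peaks between exons. The widest lay between constant exons 2 and 3 (chr18:37835400-37836876, 1477 bp) and held 1 CTCF match on the strand of the genes. Next was the peak at the TSS of Pcdhgb8 (chr18:37761360-37761879, 520 bp), which is annotated as a polymorphic pseudogene and was therefore no member. The other 4 were at chr18:37800742-37801190 (449 bp), chr18:37826329-37826747 (419 bp), chr18:37771484-37771873 (390 bp) and chr18:37785036-37785295 (260 bp). None of the 8 peaks between exons lay outside every annotated gene body, because Pcdha and Pcdhg transcripts and read-through genes span the subclusters.

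Outside the subclusters, the gap between Pcdha and Pcdhb held 1 peak of 1102 bp (chr18:37217458-37218559), 46379 bp before the Pcdhb1 exon. It had a CpG ratio of 0.816 and 2 CTCF matches on the strand opposite to the genes. An enhancer of Pcdha, HS5-1, is known downstream of the Pcdha constant exons, but its coordinates were not used here and the peak was not matched to it. Between Pcdhb and Pcdhg, 4 of 5 peaks had a centre within 1 kb of a TSS of another gene. These were Slc25a2, a mitochondrial carrier gene (725 bp), Taf7, a gene for a subunit of the general transcription factor TFIID (352 and 1251 bp), and the non-coding gene 3222401L13Rik (1042 bp). The peak of 352 bp lay inside Taf7 and did not reach the first base of the gene. The remaining peak of this gap was made mostly of repeats (chr18:37543617-37544241, 625 bp, 89.6% repeat). After Pcdhg, a peak of 1358 bp (chr18:37841469-37842826) overlapped the non-coding end of the last exon, and 5 peaks of 548 to 1090 bp lay within Diaph1, an actin-organising formin gene read from the other strand, of which 2 held CTCF matches on that opposite strand. The TSS peak of Diaph1 itself (1211 bp) lay past the end of the region.

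To place the clusters beside related genes, TSS peaks were counted in lists of other genes. All 12 protocadherin genes outside the clusters had a TSS peak, among them Pcdh1, Pcdh10 and Pcdh19, against 38 of the 57 clustered ones and 70.8% of all protein-coding genes. Of the 8 of these with at least 2 kb of coding sequence in their first coding exon, 7 had a peak in it and 4, Pcdh7, Pcdh8, Pcdh10 and Pcdh17, had a body peak. Of all 285 such exons outside the clusters 42.5% had a peak and 19.6% a body peak. Body peaks were thus also found in protocadherins outside the clusters. Among other tandem families 36 of 39 Hox genes (92.3%) and 81 of 1135 olfactory receptor genes (7.14%) had a TSS peak, and the clustered protocadherins stood between them. TSS peaks were present for all 11 genes of the CTCF and cohesin list and for all 10 genes known to repress the clusters, such as Smchd1 and Setdb1. They were also present for all markers of ES cells (5), neurons (4), fibroblasts (4) and trophoblast (4), so a TSS peak in this list does not tell cell types apart and is no measure of expression.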

How the data were processed

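The deposited file holds 1 merged list for all samples, with chromosome, start and end of each peak in bp and no count, score or signal. According to the methods and the submitters' processing notes, the authors aligned reads to GRCm38 with STAR 2.6.1c, removed duplicates with Picard, called peaks with MACS2 2.1.1.20160309 and merged them with bedtools. Whether peaks were called per library is not stated. The methods also describe a filter against peaks above 5 kb, blacklisted peaks and peaks that overlapped those of input libraries. The list held 11 peaks above 5 kb, so this filter had not been applied in full to it. A merged list gains and widens peaks with more libraries. Positions were compared, 1-based, with the RefSeq sequence of GRCm38.p6 and GENCODE M21. The variable exon was the exon with the longest first coding segment, for Pcdha and Pcdhg in transcripts with a constant exon (a coding segment shared by more than 5 genes). Overlap meant 1 bp or more. No test was made, since no value belonged to a sample. Counts of genes, exons and peaks with a TSS peak, exon peak, body peak or CTCF match are given beside the same count over all of them or over exons of like length; other counts stand alone. All member genes were accounted for, including those without a peak. The genes named with their peaks are those with a start or exon peak, the C-type genes, the 3 genes without a TSS peak with the closest peak centre, the 5 widest peaks between exons of each subcluster (the sixth in Pcdhg was added after the values were seen) and other genes with a TSS peak in the region. The members and lists were chosen with earlier results of these data known. The definition of body peaks was added after the positions had been seen. The motif and overlap steps were tested on simulated data. Python 3.11.15, numpy 2.4.6, pandas 2.3.3, scipy 1.17.1 and matplotlib 3.10.9 were used.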

Additional observations from a re-analysis of the deposited data

How the results depend on the processing

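Of 58 alternative settings of 15 counts, 53 left the count within 1.5 times its value and 5 did not. These 5 were the Pcdhb genes with a TSS peak, 21 at a limit of 2500 bp against 7 at 1 kb; the peaks between exons, 0 against 8 when only peaks outside every gene body were kept; and the peaks with a CTCF match, which were 20 with up to 1 mismatch, 13 with none (13.7%, against 4.19% of all peaks), 59 with up to 2 (62.1% against 49.5%) and 6 in the 200 bp around the peak centre (6.32% against 8.14%). The region was above the share of all peaks in the first 3 of these CTCF settings and below it in the last. Body peaks were found in 33 genes when counted from 500 bp past the exon start and in 29 without peaks under 200 bp, settings chosen after seeing the data. No paired analysis was possible because the list holds no values per sample, and leaving out a replicate was not possible for the same reason. Depth is unknown, so the lack of a peak at Pcdhb15 or another gene means only that the list holds none. Whether a peak there was called and later removed by the study's filters cannot be told.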
